A study of Homo sapiens with 12 samples.

Results

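The cytosolic ribosomal protein genes encode the protein part of the 40S and 60S subunits. Members were the protein-coding genes with a GENCODE symbol that starts RPL or RPS followed by a digit, together with RPLP0, RPLP1, RPLP2 and RPSA, and without the RPS6K kinases and numbered pseudogenes. The rule finds 90 genes, of which 89 are in both expression tables of 59424 genes, while RPS18 was not analysed here. Of the 89, 34 belong to the 40S subunit and 55 to the 60S subunit, and by kind 76 are core genes, 10 are paralogs of a core gene and 3 are read-through genes that share exons with a neighbour.

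Ribosomal proteins wrap and stabilise the ribosomal RNA, and each ribosome needs near-equal numbers of them. Their genes are transcribed at high rates. Most of their mRNAs begin with a 5′ terminal oligopyrimidine (TOP) tract, a cytosine followed by an unbroken run of pyrimidines, through which the kinase mTOR and the RNA-binding protein LARP1 control translation and mRNA stability. Ribosome production is closely tied to growth in cancer cells.

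RNA-seq was made of 12 libraries from 2 prostate cancer cell lines that carried lentiviral constructs. CWR22RV1 was compared as GALNT7 KD (an shRNA against GALNT7) with shControl. DU145 was compared as GALNT7 OE (GALNT7 overexpression) with OE control. GALNT7 is a Golgi enzyme that adds GalNAc sugars in mucin-type O-glycosylation. There were 4 groups of 3 biological replicates, all of them stable lines after transduction, so no group is an untreated parental line.

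The deposited values are normalised counts, and 18364512 to 24356910 reads per library were recovered from them. GALNT7 followed its labels: in CWR22RV1 it had 862, 1042 and 1093 normalised counts in shControl against 481, 501 and 400 in GALNT7 KD, and in DU145 1051, 928 and 913 in OE control against 1988, 2221 and 2334 in GALNT7 OE. KLK3, a prostate luminal marker, had at least 339 normalised counts in every CWR22RV1 library and was at 0 in DU145, and the epithelial keratin KRT8 had at least 9990 in all 12. Of 9 markers of leukocytes, endothelium, fibroblasts and erythrocytes, 3 were at 0 in all libraries of each line, HBB and CD3E in both, and CD68, a lysosomal protein that is not limited to leukocytes, had the highest mean over the 6 libraries of each line. The 9 together summed to 212 to 218 normalised counts in shControl against 334 to 411 in GALNT7 KD. The erythrocyte marker HBA1, an alpha globin, had 36, 27 and 38 in shControl and 162, 151 and 168 in GALNT7 KD, a rise of 2.23 on the log2 scale (limma adjusted p = 0.00176), and was at 0 in DU145. In DU145 their sum was 2900 to 3185 in OE control against 1067 to 1242 in GALNT7 OE, and their part in the results was not tested. In such bulk samples fewer cells of a type and less RNA per cell cannot be told apart.

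Promoter windows in RefSeq (GRCh38.p14) were found for 71 of the 89 genes. Shown are those of the stalk genes and RPL41, on which the knockdown results rest, and of RPSA, RPS24, RPL24 and RPL13A, on which the overexpression results rest. Each window holds 30 bases before and 20 after the annotated start, on the gene's strand, and capitals mark every CTTTC or CTTTT. The 2 patterns can overlap by 1 shared C, as in RPL24.
RPLP0: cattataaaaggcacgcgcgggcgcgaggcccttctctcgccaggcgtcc
RPLP1: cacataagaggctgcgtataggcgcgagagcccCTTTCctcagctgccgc
RPLP2: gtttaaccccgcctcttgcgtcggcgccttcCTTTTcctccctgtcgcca
RPL41: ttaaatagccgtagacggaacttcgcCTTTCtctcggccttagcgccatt
RPSA: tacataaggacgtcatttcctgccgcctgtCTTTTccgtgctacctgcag
RPS24: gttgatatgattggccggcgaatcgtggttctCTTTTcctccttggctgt
RPL24: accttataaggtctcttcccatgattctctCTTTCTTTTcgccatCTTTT
RPL13A: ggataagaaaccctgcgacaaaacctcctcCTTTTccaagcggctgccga

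The windows of RPLP0 (chr12:120201092-120201141) and RPL24 (chr3:101686699-101686748) read the minus strand. Those of RPLP1 (chr15:69452788-69452837), RPLP2 (chr11:809937-809986), RPL41 (chr12:56116603-56116652), RPSA (chr3:39406690-39406739), RPS24 (chr10:78033833-78033882) and RPL13A (chr19:49487578-49487627) read the plus strand. All 8 have a C at the annotated start, followed by a pyrimidine run that ends after 5 bases in RPL41 and after 14 in RPS24, the C included. Among the 61 core genes with a window, 45 (73.8%) began with C against 15.0% of all 27305 promoters, and 41 (67.2%) began with C and at least 4 more pyrimidines against 4.04%. Within 20 bases of the start, CTTTC was present in 29 core genes (47.5%; 5.35% of all promoters), CTTTT in 16 (26.2%; 4.74%) and CTCTTTCC, which contains CTTTC, in 7 (11.5%; 0.256%). These are descriptions of the annotated start, searched on the gene's strand only, and the true start in these cells was not measured.

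Of the 89 genes, 86 passed the filter on low values (a mean of at least 5 normalised counts) in each cell line and were tested. The paralogs RPL3L and RPL10L, with at most 1 read in any library, and a Y-linked paralog were not. All 76 core genes passed. A call is an adjusted p under 0.05 by limma on log2(normalised count + 1), with Benjamini-Hochberg adjustment over all genes tested in that cell line, and this scale understates the change of low genes. The labels call the replicates biological without saying that they came from separate cultures, so p-values measure the spread between these libraries, which may be technical.

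After GALNT7 knockdown 9 of 86 ribosomal protein genes were called, near the 9.06% of all genes tested. Of the 9, 8 were lower and 1 was higher, where 3.79% of all genes were called lower and 5.28% higher. The lower genes were led by RPLP2 and RPLP0 of the lateral stalk and by RPL41, and only RPL12 was called higher. The median log2 fold change over the 86 genes was -0.06, beside -0.01 over all 17906 genes tested, and 58 of 86 values were below 0. Among the 4139 genes at or above the level of the lowest core member, 650 were called, 371 higher and 279 lower. Their median was 0.02.

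The lateral stalk is the flexible arm of the 60S subunit, RPLP0 at its base with RPLP1 and RPLP2 attached, that recruits translation factors with GTPase activity. RPLP2 had 10346, 10466 and 10483 normalised counts in shControl and 6649, 6132 and 7145 in GALNT7 KD. All knockdown libraries lay below all controls, and its log2 fold change was -0.65 (SE 0.06, adjusted p = 0.00229 by limma), or 0.64 of the control level. RPLP0 had 52996, 54993 and 51982 in shControl and 41079, 42079 and 42166 in GALNT7 KD. The groups again did not overlap, with a log2 fold change of -0.35 (SE 0.03, limma adjusted p = 0.0016). RPLP1 had 13142, 12078 and 12855 in shControl and 9000, 8418 and 12268 in GALNT7 KD. GALNT7 KD replicate 3 sat within the control range, and the gene was not called at a log2 fold change of -0.38 (SE 0.13, limma adjusted p = 0.134). Without that library the value was -0.54 with an adjusted p of 0.00871. No other fit that left 1 library out called RPLP1 (limma adjusted p 0.195 to 0.305).

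RPL41, the smallest ribosomal protein and one that bridges the subunits, had 43905, 46526 and 42086 normalised counts in shControl and 30864, 34532 and 32542 in GALNT7 KD. Every knockdown library was lower, with a log2 fold change of -0.44 (SE 0.05, limma adjusted p = 0.00619). RPL41 and RPLP0 lie on chromosome 12, where the median over the 922 genes tested was -0.28 in knockdown. The other chromosome 12 core genes, RPL6 at -0.12 (adjusted p = 0.0546) and RPS26, which sits near the mRNA exit, at -0.14 (adjusted p = 0.111), were not called by limma. When each gene was centred on the median of its chromosome, RPL41 was at -0.23 and RPLP0 at -0.14, and neither was called (adjusted p = 0.109 and 0.106). RPLP2, on chromosome 11, remained called under every alternative run.

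**Figure D1:**
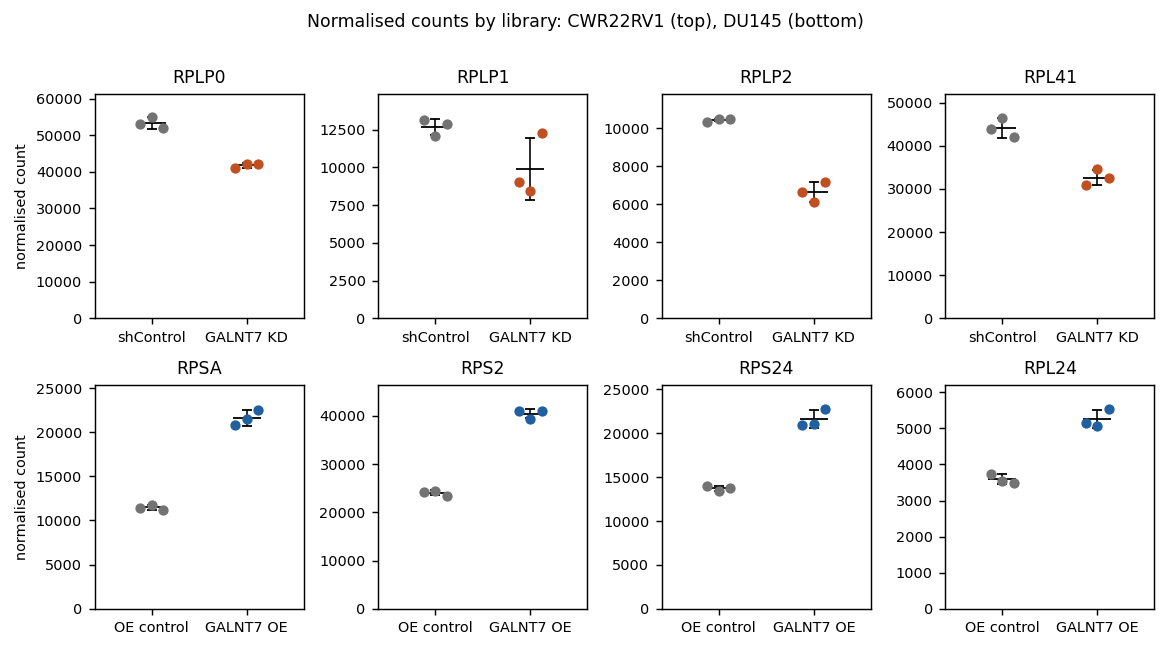
Normalised counts (vertical axis from 0) of 8 ribosomal protein genes by library. Points are libraries, bars the mean ± SD of 3; top, shControl (grey) and GALNT7 KD (orange) in CWR22RV1; bottom, OE control (grey) and GALNT7 OE (blue) in DU145. The groups overlap for RPLP1 alone, whose GALNT7 KD replicate 3 is at 12268.

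The remaining calls were smaller and less stable. RPS24, a 40S protein mutated in some families with Diamond-Blackfan anaemia, had 29080, 29752 and 26766 normalised counts in shControl and 23120, 23838 and 23272 in GALNT7 KD. Its log2 fold change was -0.28 (SE 0.04, limma adjusted p = 0.0127), and the call was lost without shControl replicate 1 or GALNT7 KD replicate 1 (adjusted p up to 0.0609). RPL36, a 60S protein, fell by 0.27 on the log2 scale (SE 0.05, limma adjusted p = 0.0292), a call lost without shControl replicate 1 or 2 or GALNT7 KD replicate 1 or 2 (up to 0.101).

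RPL27A (-0.19), RPL26 (-0.18), found near the exit of the peptide tunnel, and RPL10A (-0.15), the protein of the mobile L1 stalk, were each called with 6 libraries and lost the call whichever of the 6 was left out, with adjusted p up to 0.111, 0.153 and 0.121. RPL12, which binds beside RPLP0 at the base of the lateral stalk, had 34039, 34741 and 33312 normalised counts in shControl and 37201, 38866 and 36811 in GALNT7 KD. It was higher in all 3 knockdown libraries by 0.14 (SE 0.03, limma adjusted p = 0.0367), and was called in 1 of the 6 fits that left a library out, the one without GALNT7 KD replicate 3. The groups did not overlap for 32 of the 86 genes, 26 of them lower in knockdown, where 32.5% of all genes tested had groups that did not overlap.

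After GALNT7 overexpression in DU145 the pattern was wider: 47 of 86 genes were called, against 43.5% of all genes tested. There were 39 higher and 8 lower, where 22.9% of all genes were called higher and 20.5% lower. The largest core rises were those of the 40S genes RPSA, RPS2 and RPS24 and of RPL24, while RPL13 and RPL13A led the lower genes. The median over the 86 was 0.10 beside -0.01 over all 18705 genes tested, and 57 of 86 values were above 0. The split depended on scaling, with 30 higher and 23 lower after rescaling to the 75th percentile and 34 higher and 17 lower after quantile normalisation. That of all 18705 genes moved too, to 3380 higher and 4736 lower at the 75th percentile and 4124 higher and 3707 lower after quantile normalisation. Among the 5368 genes at or above the level of the lowest core member, 3415 were called, 2199 higher and 1216 lower, and the median was 0.13.

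RPSA, a protein on the back of the 40S subunit that is also known as the laminin receptor, had 11415, 11784 and 11213 normalised counts in OE control and 20815, 21475 and 22518 in GALNT7 OE. The lowest overexpression library was far above the highest control, a 1.88-fold rise (log2 fold change 0.91, SE 0.04, limma adjusted p = 8.86e-06). RPS2, which helps form the mRNA entry channel, had 24242, 24477 and 23464 in OE control and 41003, 39388 and 40947 in GALNT7 OE. It rose 1.68-fold (0.75 on the log2 scale, SE 0.03, limma adjusted p = 7e-06). In the knockdown of CWR22RV1 the same genes were not called, at 0.04 for RPSA (95% interval -0.11 to 0.18) and 0.00 for RPS2 (-0.09 to 0.09).

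RPS24 had 13972, 13438 and 13747 normalised counts in OE control and 20921, 21108 and 22763 in GALNT7 OE, with no overlap. It rose by 0.65 on the log2 scale (SE 0.04, limma adjusted p = 3.99e-05), and in knockdown it was lower. RPL24, which forms a bridge between the subunits, had 3743, 3536 and 3479 in OE control and 5155, 5069 and 5545 in GALNT7 OE. Each overexpression library exceeded each control, by 0.55 on the log2 scale (SE 0.05, limma adjusted p = 0.00025).

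The next largest core rises were in RPS26 (0.50), RPL21 (0.45), RPS12 (0.42) and RPL22 (0.41). RPS26 went from 1360 to 1440 normalised counts in OE control to 1838 to 2136 in GALNT7 OE. RPS12, on the beak of the 40S head, went from 10229 to 10371 to 13582 to 14152, a narrow spread in both groups. RPS7 (0.35), RPL6 (0.35), RPS3A (0.35), RPL7 (0.33) and RPL9 (0.33) followed. All of these were called when any 1 library was left out, and RPL21, on chromosome 13, was not called after centring on chromosomes (0.15, limma adjusted p = 0.117).

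The 8 lower genes changed less. RPL13A, a 60S protein also known for a role in silencing inflammatory mRNAs, had 25225, 24985 and 24662 normalised counts in OE control and 21222, 20477 and 20494 in GALNT7 OE. It fell by 0.27 on the log2 scale (SE 0.03, limma adjusted p = 0.00036) in libraries that did not overlap. RPL13 had 21929, 21596 and 21112 in OE control and 18586, 17896 and 17040 in GALNT7 OE, at -0.27 (SE 0.04, adjusted p = 0.00148). RPL28 (-0.24), RPL10A (-0.20), RPS16 (-0.19) and RPL29 (-0.17) were also lower. RPL29 lost its call without OE control replicate 2 or GALNT7 OE replicate 2 or 3 (limma adjusted p up to 0.0683).

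**Figure D2:**
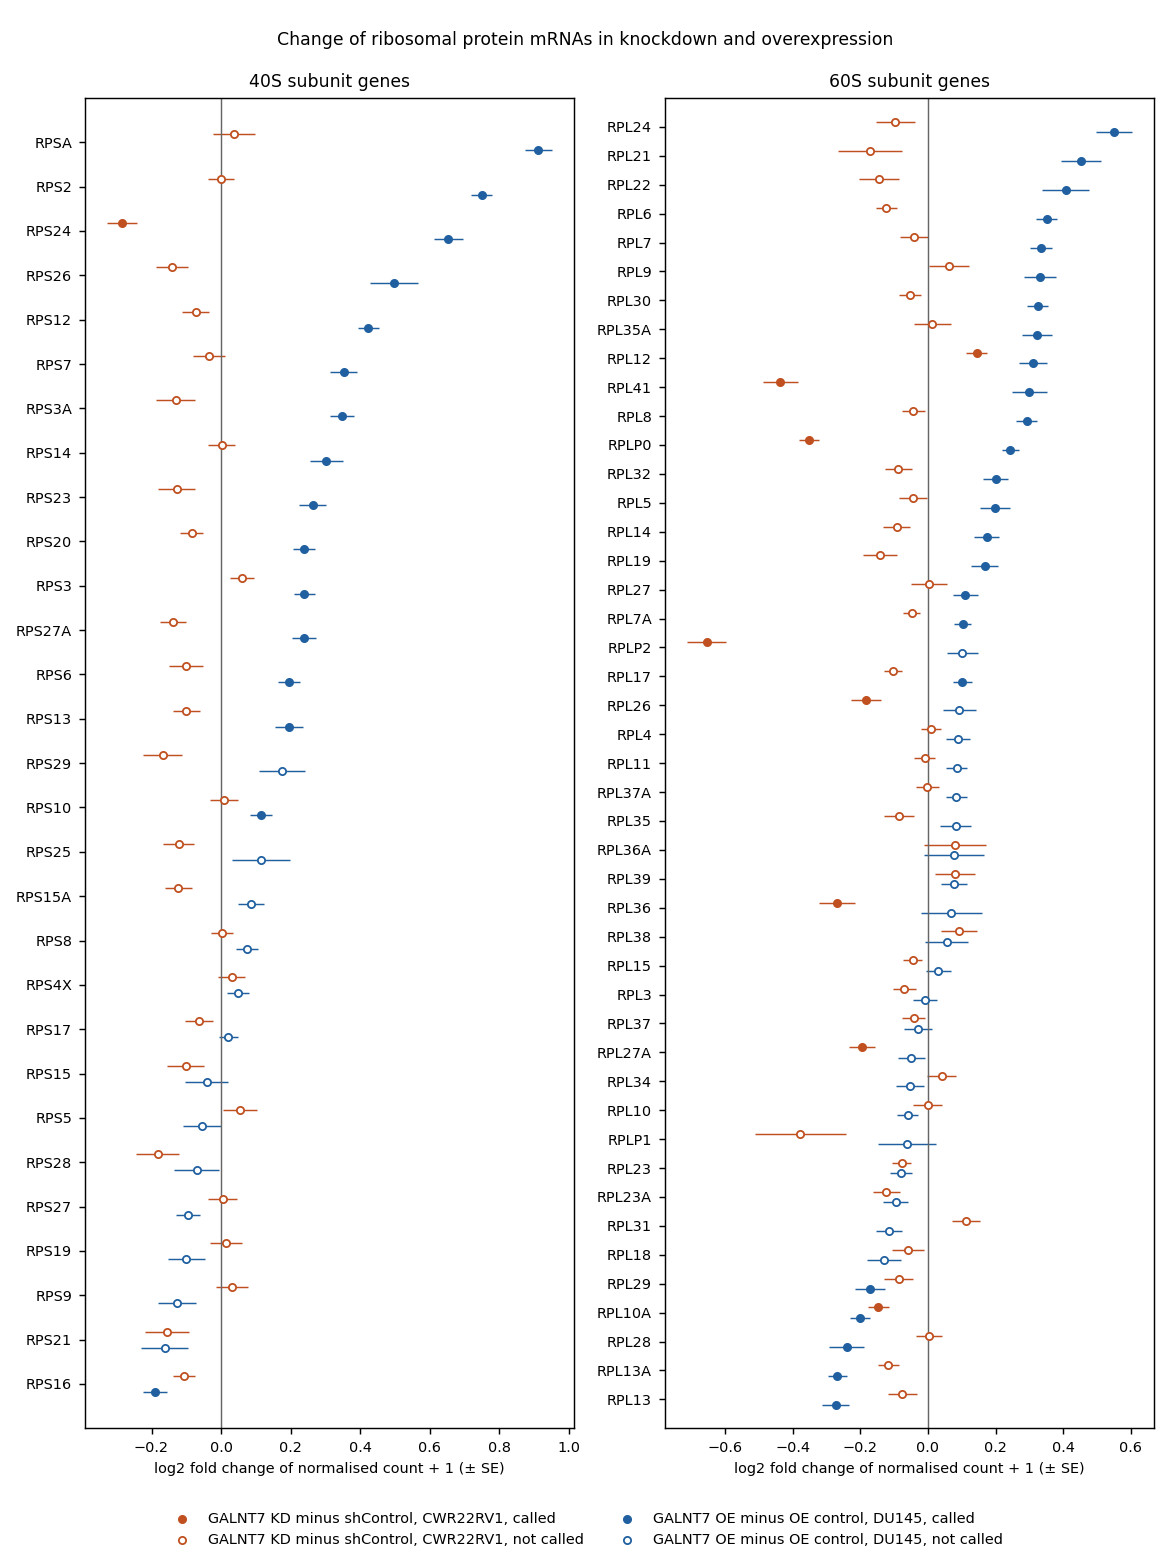
Log2 fold change (horizontal axis, ± SE) of core genes, 40S left and 60S right, ordered by the overexpression value. Orange is GALNT7 KD minus shControl and blue GALNT7 OE minus OE control; filled points were called. RPSA (0.91) tops the 40S panel in overexpression and RPLP2 (-0.65) is the lowest knockdown value.

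By subunit, 17 of 30 core 40S genes were called in overexpression (15 higher, 2 lower, median 0.15) and 25 of 46 core 60S genes (19 higher, 6 lower, median 0.08). In knockdown 1 of 30 core 40S genes and 8 of 46 core 60S genes were called, with medians of -0.09 and -0.07. The shares over all genes tested were 43.5% called in overexpression and 9.06% in knockdown. Of the 6 genes listed for the mRNA channel and decoding site (RPS2, RPS3, RPS12, RPS15, RPS23 and RPS27A, of which RPS12 is a beak protein rather than a channel protein), 5 rose in overexpression and RPS15 was at -0.04, while none was called in knockdown (median -0.09). RPS3, which guards the entry of the channel, went from 21640 to 22092 normalised counts to 25122 to 26494, a rise of 0.24. Of 5 genes listed for the peptide tunnel and its exit (RPL4, RPL17, RPL23A, RPL35 and RPL39), RPL17 alone was called in overexpression, at 0.10, and it lost the call in 5 of 6 fits that left a library out (adjusted p up to 0.0921), all but the one without GALNT7 OE replicate 1. None of these 5 was called in knockdown, where RPL26, near the exit but not on that list, was called lower.

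RPL5 and RPL11 form with 5S rRNA a particle that, when not built into ribosomes, binds MDM2 and frees p53. RPL5 had 12301, 12369 and 12000 normalised counts in OE control and 13410, 13836 and 14867 in GALNT7 OE, a rise of 0.20 (SE 0.04, limma adjusted p = 0.0104). RPL11 was at 0.08 (adjusted p = 0.0617) and was not called. In knockdown RPL5 was at -0.05 and RPL11 at -0.01, and the groups overlapped for both. RPS6, the substrate of the S6 kinases, rose by 0.20 in overexpression (limma adjusted p = 0.00273) and was at -0.10 in knockdown (adjusted p = 0.255).

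In the stalk, overexpression moved RPLP0 from 35240 to 35858 normalised counts to 41375 to 43112, a rise of 0.24 (SE 0.03, limma adjusted p = 0.000386). RPLP2 at 0.10 (adjusted p = 0.117) and RPLP1 at -0.06 (adjusted p = 0.592) were not called. GALNT7 OE replicate 1 was the highest library for both, with 6644 normalised counts of RPLP2 and 17077 of RPLP1. Without it RPLP1 was called lower at -0.16 (adjusted p = 0.0303), and no other fit that left 1 library out called RPLP1 (limma adjusted p 0.491 to 0.973).

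Of 18 genes listed for Diamond-Blackfan anaemia, an inherited failure of red cell production caused by ribosomal protein loss, 7 rose in overexpression and none fell (median 0.09), where 22.9% of all genes were called higher and 20.5% lower, and 2, RPS24 and RPL26, were lower in knockdown (median -0.05). Among those that rose were RPS24, RPS26, RPS7, RPL35A (0.32) and RPL5. RPS19, the gene most often mutated in that disease, was at -0.10 in overexpression (adjusted p = 0.170) and 0.01 in knockdown, so it was not called in either.

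Of the 86 genes tested, 9 were called in knockdown and 47 in overexpression, and 5, all of them core, were called in both. The shares of all genes tested were 9.06% called in knockdown and 43.5% in overexpression, and the share called in both was not computed. RPL41 (-0.44 in knockdown, 0.30 in overexpression), RPLP0 (-0.35 and 0.24) and RPS24 (-0.28 and 0.65) went in opposite directions. RPL41 and RPLP0 lie on chromosome 12, and neither was called in knockdown after centring on chromosomes. RPL10A was lower in both (-0.15 and -0.20), and RPL12 was higher in both (0.14 and 0.31). The comparisons share no library, but they differ in cell line as well as in treatment.

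Some paralogs of ribosomal proteins replace or accompany their core partner in some tissues. Reads do not show which of the paralogs here, RPL7L1 included, are built into ribosomes. The changes of the paralogs in overexpression included the largest of any member that is not a read-through gene. RPL39L, a testis-enriched copy of the tunnel protein RPL39, had 308, 299 and 234 normalised counts in OE control and 569, 585 and 608 in GALNT7 OE. It rose 2.11-fold (log2 fold change 1.08, SE 0.12, limma adjusted p = 0.000518), while RPL39 was at 0.08 and was not called. RPL26L1 had 616, 492 and 416 in OE control and 792, 810 and 751 in GALNT7 OE, a rise of 0.64 (SE 0.14, adjusted p = 0.00978). RPL7L1 (0.58, adjusted p = 8.21e-05) and RPL36AL (0.36, adjusted p = 0.000454) also rose. RPL22L1 at 0.22 (adjusted p = 0.0607) and RPS27L, a p53 target, at -0.16 (adjusted p = 0.140) were not called by limma. In overexpression 4 of the 7 paralogs tested were called, where 43.5% of all genes were, and in knockdown none was, where 9.06% of all genes were.

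Shares within each pair show the paralog against its partner in the same library. RPL39L made up 7.35, 7.20 and 5.82% of the pair's reads in OE control and 12.4, 12.7 and 12.9% in GALNT7 OE, next to 12.4 to 13.7% in all 6 CWR22RV1 libraries. The DU145 groups did not overlap (exact permutation test, two-sided p = 0.1, the smallest that 3 against 3 can give). RPL26L1 rose from 2.68% ± 0.44 to 3.85% ± 0.34 (SD, n = 3), RPL7L1 from 25.9% ± 0.31 to 29.3% ± 0.60 and RPL36AL from 84.5% ± 0.82 to 87.0% ± 0.77, each with the same exact p of 0.1. In knockdown the groups were apart for RPL22L1 (36.0% ± 0.92 against 39.0% ± 0.44), RPL7L1 (14.9% ± 0.50 against 16.4% ± 0.53) and RPL26L1 (3.26% ± 0.13 against 4.10% ± 0.32), all higher in GALNT7 KD at an exact p of 0.1. RPL39L was at 13.1% ± 0.52 and 13.0% ± 0.66 there, and the groups overlapped. As single genes in knockdown, RPL22L1 was at 0.04 (limma adjusted p = 0.676) and RPL22 at -0.15 (limma adjusted p = 0.175). Groups of single genes did not overlap for 32.5% of all genes tested in knockdown and 55.3% in overexpression. No such background was computed for pairs. The pair shares leave out reads on pseudogenes of the core partner. In CWR22RV1 such pseudogenes held 42.9% of the reads of gene and pseudogenes together for RPL22 and 32.7% for RPL39. The RPL22L1 and RPL39L shares therefore depend on how those reads were divided.

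**Figure D3:**
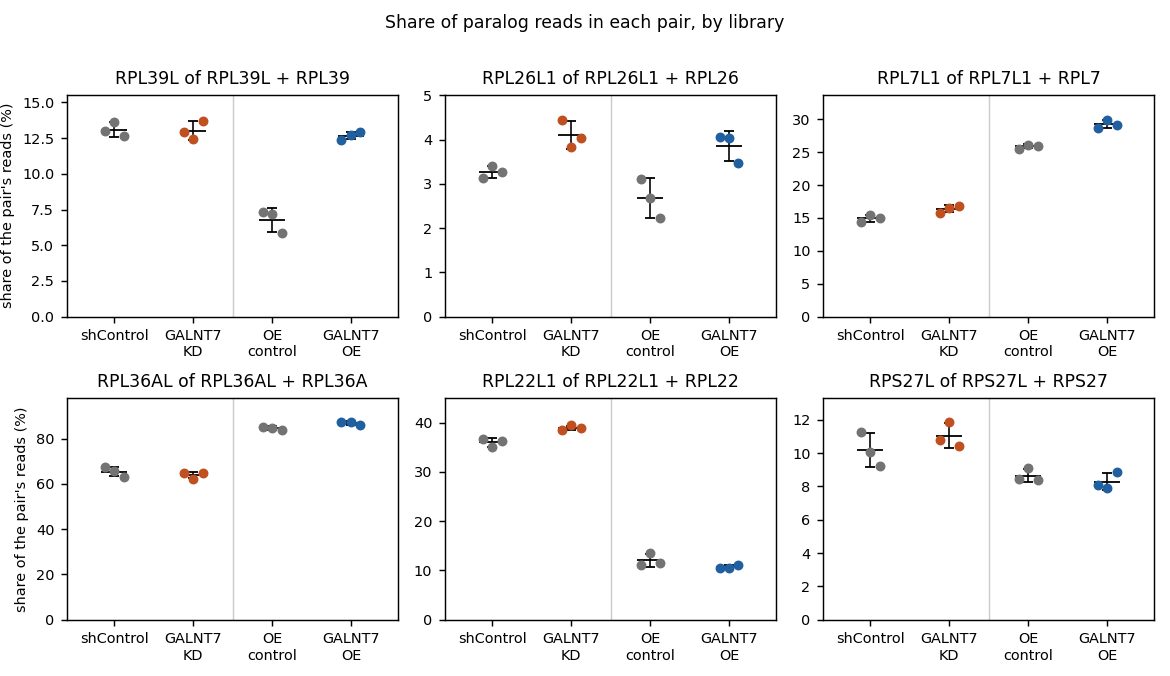
Reads of 6 paralogs as a percentage of the reads of paralog plus core partner (vertical axis from 0), by library. Points are libraries and bars the mean ± SD of 3, with the CWR22RV1 groups left and the DU145 groups right of the line. RPL39L goes from 5.82 to 7.35% in OE control to at least 12.4% in GALNT7 OE.

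Of the 3 read-through genes, RPS10-NUDT3 was called, with 248, 187 and 272 normalised counts in OE control and 507, 585 and 516 in GALNT7 OE (log2 fold change 1.20, SE 0.15, limma adjusted p = 0.0009). RPL17-C18orf32 (-0.26) and RPL36A-HNRNPH2 (-0.41) were not called in overexpression, and none of the 3 was called in knockdown. The shares over all genes tested were 43.5% called in overexpression and 9.06% in knockdown. The read-through genes share exons with RPS10, RPL17 and RPL36A, so how their reads were divided is uncertain. The same holds for core genes with pseudogenes to which reads were assigned, and whether these are transcribed was not tested. In DU145 pseudogenes named after RPL21 were assigned 74.4% of the reads of gene and pseudogenes together, those of RPS28 46.3%, RPL22 45.4%, RPS23 37.6% and RPL39 33.2%. With pseudogene reads added, RPL21 (0.46), RPL22 (0.44) and RPS23 (0.30) were still called in overexpression, and RPL22 (-0.20, limma adjusted p = 0.0336) and RPL23A (-0.18, limma adjusted p = 0.0213) became called in knockdown.

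The 89 genes held 7.64, 7.88 and 7.71% of reads in shControl and 7.18, 7.47 and 7.38% in GALNT7 KD. The knockdown libraries were all lower and the mean fell by 0.397 percentage points (exact permutation test, two-sided p = 0.1). In DU145 the share was 4.50, 4.56 and 4.43% in OE control and 4.94, 4.80 and 4.87% in GALNT7 OE, higher in all 3 by 0.374 points (exact p = 0.1). The core 40S genes went from 1.51% ± 0.03 to 1.73% ± 0.03 (SD, n = 3) and the core 60S genes from 2.88% ± 0.04 to 3.01% ± 0.04, each with an exact p of 0.1. In knockdown the core 60S share went from 4.86% ± 0.06 to 4.55% ± 0.09 (exact p = 0.1), and the core 40S share from 2.76% ± 0.06 to 2.67% ± 0.06, where the groups overlapped (exact p = 0.2).

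**Figure D4:**
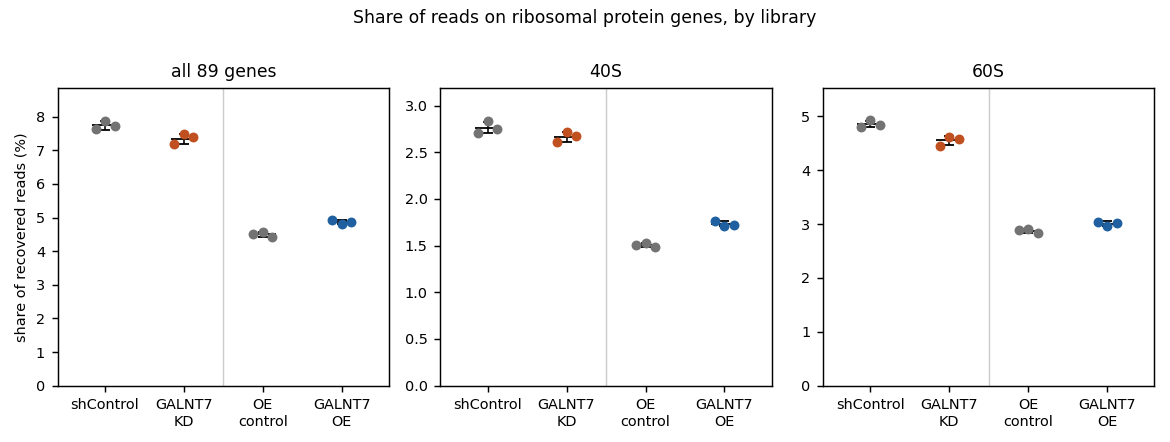
Share of recovered reads (%, vertical axis from 0) on all 89 genes, the core 40S and the core 60S genes by library. Points are libraries and bars the mean ± SD of 3, with CWR22RV1 left and DU145 right of the line. For all 89 genes, the highest GALNT7 KD library (7.47%) is below the lowest shControl library (7.64%), and the lowest GALNT7 OE library (4.80%) is above the highest OE control library (4.56%).

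The control libraries of the cell lines differed more than either treatment. As CPM (recovered reads scaled to an equal library total), 72 of the 76 core genes were lower in DU145, with a median ratio of 0.582. RPS3A had 2138 ± 128 (SD, n = 3) in shControl and 352 ± 8.33 in OE control, RPSA 2587 ± 133 and 517 ± 14.2, and RPL24 829 ± 36.5 and 162 ± 6.02. RPL37 went the other way, from 716 ± 16.7 to 1437 ± 35.8, as did RPS29, from 239 ± 5.31 to 443 ± 6.54. No test was made, since the tables were normalised separately and the controls carry different constructs.

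GC content, taken from each gene's annotated principal transcript, moved with the overexpression values. Below the median GC, 22 of 38 core genes were called, all of them higher, with a median of 0.20. At or above it 20 of 38 were called, 12 higher and 8 lower, with a median of 0.01. Over all genes tested, 22.9% were called higher and 20.5% lower. Across the 76 core genes the correlation of GC with the log2 fold change was -0.37 (Pearson) and -0.44 (Spearman), and across 5264 genes at least as abundant as the lowest of them -0.28 and -0.31, with no p since the genes share libraries and base composition. In single libraries the correlation with the deviation from the control mean was -0.32 (Pearson) in OE control replicate 3, 0.32 in OE control replicate 2 and -0.27 to -0.40 in the GALNT7 OE libraries. In knockdown the correlation across core genes was -0.10 (Pearson) and 0.02 (Spearman). In GALNT7 KD replicate 3 it was 0.14 and 0.30, and in replicate 2 -0.24 and -0.19. The part of GC content in the result was not tested. Of the 12 core genes on chromosome 19, a group chosen after its values were seen, 5 were lower in overexpression and none higher, among them RPL13A, RPL28 and RPS16.

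**Figure D5:**
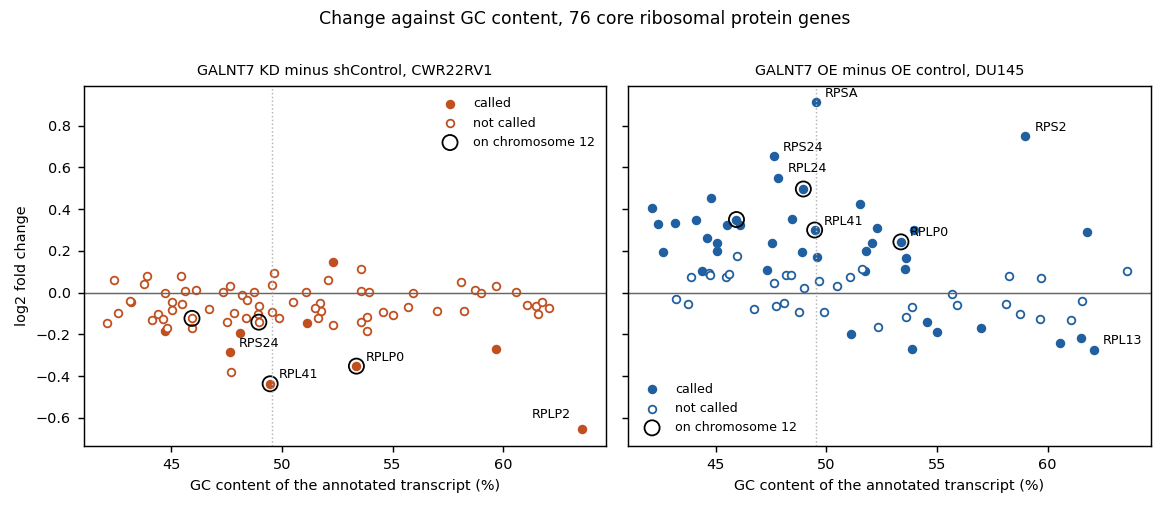
Log2 fold change against GC content (%) of the annotated transcript for 76 core genes, knockdown left and overexpression right. Filled points were called, rings mark the 4 genes on chromosome 12 and the dotted line is the median GC. All 22 called genes left of that line in overexpression lie above 0.

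Split by the annotated start, 23 of 41 core genes with a C and at least 4 more pyrimidines were called in overexpression (19 higher, 4 lower, median 0.10), and 11 of 20 with another start (9 higher, 2 lower, median 0.10). In knockdown the counts were 8 of 41 (7 lower, median -0.09) and 1 of 20 (lower, median -0.08). Of the 28 core genes that host a snoRNA, 18 were called in overexpression (14 higher, median 0.10), and of the 48 that do not, 24 (20 higher, median 0.09). The 15 core genes without a promoter window had 8 calls in overexpression (6 higher, 2 lower) and none in knockdown. Over all genes tested, 43.5% were called in overexpression and 9.06% in knockdown. Neither split was tested.

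Among ribosomal proteins outside the symbol rule, FAU, whose product carries the 40S protein eS30, rose by 0.24 in overexpression (limma adjusted p = 0.00213) and RACK1, a scaffold on the 40S head, rose by 0.14 (adjusted p = 0.0148), and neither was called in knockdown. Of 21 other genes for translation factors and proteins with TOP mRNAs, 12 were higher and 3 lower in overexpression (median 0.20). Over all genes tested, 22.9% were called higher and 20.5% lower. Of the 5368 genes at or above the level of the lowest core member, 3415 were called. NPM1, a nucleolar chaperone of ribosomal proteins, rose by 0.91 (adjusted p = 4.85e-06), HNRNPA1, an RNA-binding protein, by 0.74 and NAP1L1, a histone chaperone, by 0.62, while TPT1 fell by 0.35, EIF4A2 by 0.33 and EEF2, the translocation factor, by 0.25. In knockdown 1 was higher, EIF3E (0.34), and 7 were lower (median -0.06), where 5.28% of all genes were called higher and 3.79% lower. The largest falls were VIM (-1.20, from 71 to 99 to 33 to 39 normalised counts), NACA (-0.46) and NAP1L1 (-0.43). HNRNPA1 (-0.28), NACA, NAP1L1 and EIF4B (-0.26) lie on chromosome 12, as RPLP0 and RPL41 do. The other genes called lower lie elsewhere: NPM1 (-0.33, limma adjusted p = 0.00241) on chromosome 5, EIF4A2 (-0.21) on chromosome 3 and VIM on chromosome 10.

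Among 10 regulators of TOP mRNAs and of ribosomal protein genes, 6 were higher and 2 lower in overexpression (median 0.24), and none was called in knockdown. For these and the lists below, the shares over all genes tested were 22.9% higher and 20.5% lower in overexpression. In knockdown 9.06% of all genes tested were called. EIF4EBP1, the translation repressor that mTOR inactivates, rose by 1.03 (limma adjusted p = 5.53e-05), LARP1 by 0.49 (adjusted p = 0.000207) and LARP4 by 0.42 (adjusted p = 0.0383). EIF4EBP2 was at -0.41 (adjusted p = 0.000391) and MYC, a driver of ribosome gene transcription, at -0.28 (adjusted p = 0.00806). Of 15 chaperones and importers of ribosomal proteins, 12 rose and none fell (median 0.71), led by PAK1IP1 (1.16), IPO4 (1.11) and RIOK1 (1.07). Of 13 genes for 5S particle assembly and 60S release, 8 rose, led by RPF2 (1.06), MRTO4 (0.80) and BRIX1 (0.72), and ZNF622 (-0.35) and SBDS (-0.21) fell (median 0.49). Mitochondrial ribosomal proteins, which serve the separate ribosome of that organelle, were called in 60 of 76 cases in overexpression (58 higher, 2 lower, median 0.45), beside the median of 0.10 of their cytosolic counterparts. The difference between these lists and the cytosolic genes was not tested. In knockdown none of the chaperone and assembly genes and 2 mitochondrial ribosomal protein genes were called.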

How the data were processed

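Libraries were made with a stranded poly(A) mRNA kit. The submitters' processing notes name the hg38 build, FastQC, Salmon, DESeq2 and R 3.5.3. The deposited signal is a table of normalised counts per gene and cell line. In each library the values were whole multiples of 1 step (100% within 0.01), as counts divided by a size factor are, so whole reads were recovered. Gene types, transcripts and positions came from GENCODE 29 and promoters from RefSeq. The members and lists were chosen with earlier results of these data known.

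Each cell line was fitted by itself with limma 3.58.1 (R 4.3.3), on the log2 scale after adding 1, with a trended prior, keeping genes whose mean over 6 libraries reached 5, with Benjamini-Hochberg adjustment over all of them (adjusted p under 0.05). On recovered reads edgeR 4.0.16 (quasi-likelihood) called 1546 genes in knockdown and 8042 in overexpression, 8 and 47 of them members. DESeq2 1.42.0 called 2666 and 8048 genes, 18 and 54 of them members. Shares were compared by exact permutation. Code was tested on simulated data. Named were the 10 highest and 10 lowest called members per comparison with a mean of at least 50, the paralogs, the chromosome 12 members, the stalk, RPSA, RPL5, RPL11, RPS6, RPS3, the Diamond-Blackfan list, and the 3 largest called changes each way of other lists. Same-numbered replicates correlated by -0.011 to 0.0747 in their deviations, so the numbers were not taken as pairs. No libraries agreed within sampling noise. Results for some genes are not reported here.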

Additional observations from a re-analysis of the deposited data

How the results depend on the processing

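The count of called ribosomal protein genes in knockdown (9) depended on the processing. It was 3 at an adjusted p of 0.01, 5 without the filter on low values and 3 with eBayes without trend. It was 5 after centring on chromosomes and 18 by DESeq2 on recovered reads. Calls over all genes tested moved as well, from 1623 to 392, 1238, 996, 1225 and 2666 in the same order. Leaving out 1 library gave 3 to 11 member calls, where 539 to 1336 of all genes were called. It gave 3 without shControl replicate 1 or GALNT7 KD replicate 1, 4 without shControl replicate 2 or GALNT7 KD replicate 2 and 5 without shControl replicate 3. The knockdown median stayed below 0 under every alternative run and moved to -0.0288 with quantile normalisation. In overexpression (47) the count ranged from 35 to 54, and leaving out 1 library gave 41 to 51. Without 1 library 6757 to 7629 of all genes were called, against 8132 with all libraries. The overexpression median moved to -0.00167 with the 75th percentile, where the median of all genes was -0.11, and to 0.0636 with quantile normalisation. With the replicate number as a replicate block, which the data did not show to pair the samples, 6 members were called in knockdown and 43 in overexpression. Over all genes the block gave 1002 and 7405 calls. The differences in read share kept their sign under every alternative, from -0.455 to -0.426 points in knockdown for other denominators and pseudogenes and 0.287 to 0.401 in overexpression. For RPS2 in knockdown quantile normalisation gave 0.18 and a call (adjusted p = 0.041). Centring on chromosomes gave RPL3 0.22 and RPL17 -0.0714 in overexpression, the first called and the second not. Of the 9 knockdown calls 1 (RPLP2) held under every alternative, and of the 47 overexpression calls 30 did. With 3 libraries a group no exact permutation test could give a p below 0.1.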
